A study of Mus musculus with 8 samples.

Results

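The potassium channel genes of mouse dorsal root ganglia were taken by name: every gene whose symbol is Kcn, followed by a subfamily letter or letters and a number. Of 48315 gene symbols listed for both sexes, 92 matched, in 20 subfamilies. Of these, 62 averaged at least 1 read per 1000000 counted reads (CPM) over the 8 libraries and were analysed, and the other 30 fell under that level and are accounted for by their values only. The symbol rule takes 77 genes for pore-forming subunits and 15 genes for accessory subunits, and leaves out channel partners with other names.

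The libraries were made from dorsal root ganglia, the clusters of sensory neuron cell bodies and their glia beside the spinal cord. Wild-type mice of strain SW served as the source, 4 libraries are labelled female and 4 male, and saline was the only treatment, given to both sexes as a control. The labels give no age, and whether mice were pooled for a library is not stated in them. Ribosome profiling, which the design of the series also names, was not analysed here.

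A potassium channel lets potassium ions leave or enter a cell through a pore whose narrowest part, the selectivity filter, is lined by a short stretch of protein that is alike across most of the superfamily. In sensory neurons the voltage-gated kinds repolarise the action potential and hold down repetitive firing, the tandem-pore kinds carry a leak that sets the resting potential, and the calcium- and sodium-activated kinds follow the spike. In the satellite glia around the cell bodies, inward rectifiers clear the potassium that firing neurons release.

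Each library held 7497795 to 12155806 counted reads, worked out from the step between neighbouring values, so that 3 reads, taken as the lowest countable level, correspond to 0.247 to 0.400 CPM depending on the library. All 13 sensory neuron markers examined were present in every library. Transcripts made from one sex chromosome went against the labels in both replicate 1 libraries: Xist, the RNA of the inactive X, was at 0.270 CPM in the library labelled female 1 and at 294 CPM in the library labelled male 1, and the Y-linked Ddx3y was at 102 CPM in female 1 and at 0.855 CPM in male 1. The gene-by-gene comparison of the sexes is therefore also given for the 6 libraries without both replicate 1. The library labelled male 2 held transcripts of the central nervous system: 6 oligodendrocyte markers summed to 151 CPM there and to at most 34.2 CPM in the other 7 libraries, 7 astrocyte markers to 156 against at most 24.5 CPM, and 8 markers of inhibitory and motor neurons to 103 against at most 9.13 CPM, with the motor neuron marker Chat at 0.

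The coding sequence holds a stretch that most, but not all, of the pore-forming members share. The bases that encode the selectivity filter were searched for in frame, on the coding strand only, as the 15-letter motif ACNNNNGGNTANGGN, which spells threonine, any residue, glycine, tyrosine (or stop) and glycine. It was present in 57 of the 77 pore-forming members and in 0 of the 15 accessory members, against 116 of 21630 coding genes (0.536%). The shorter motif inside it, GGNTANGGN, was present in 62 of the 77 pore-forming members, in 0 of the 15 accessory members and in 6.05% of all coding genes. The windows below are from the leading members of 7 subfamilies, from Kcna6, the next highest Kcna member, and from the tandem-pore Kcnk1. They do not cover every class with the motif, and none is from an inward rectifier. They are written 5′ to 3′ on the coding strand, with the motif in capitals, from GENCODE transcripts on GRCm38, and so are letters of the reference strain and not of the SW mice.
Kcna2: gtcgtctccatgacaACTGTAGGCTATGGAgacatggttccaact
Kcna6: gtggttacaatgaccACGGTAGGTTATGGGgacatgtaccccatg
Kcnb2: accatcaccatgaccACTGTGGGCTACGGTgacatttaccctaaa
Kcnc1: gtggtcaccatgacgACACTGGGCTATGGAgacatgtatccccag
Kcnd1: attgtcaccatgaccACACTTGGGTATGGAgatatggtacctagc
Kcnf1: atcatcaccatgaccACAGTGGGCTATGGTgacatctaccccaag
Kcnma1: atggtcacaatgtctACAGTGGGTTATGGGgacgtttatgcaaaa
Kcnn4: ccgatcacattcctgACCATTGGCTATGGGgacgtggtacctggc
Kcnk1: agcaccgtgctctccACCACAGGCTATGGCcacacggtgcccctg

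In the voltage-gated and calcium-activated windows the letters after the capitals begin with ga, whereas the tandem-pore channel Kcnk1 continues with cac. The Kcna2 window lies at chr3:107105209-107105253 on the plus strand, in exon 3 of 3, and the Kcna6 window at chr6:126738632-126738676 on the minus strand. Those of Kcnb2 (chr1:15710031-15710075, plus strand, exon 2 of 2), Kcnc1 (chr7:46427958-46428002, plus strand, exon 2 of 4) and Kcnma1 (chr14:23528398-23528442, minus strand, exon 8 of 30) also fall inside a single exon, while the Kcnd1 window is split across neighbouring exons. By subfamily, the motif was present in every member of Kcna, Kcnb, Kcnc, Kcnd, Kcnf, Kcng, Kcnq, Kcns, Kcnv and Kcnma, in 12 of 15 Kcnj, 11 of 14 Kcnk and 1 of 4 Kcnn members. It was absent from all 8 Kcnh genes, both Kcnt genes and Kcnu1, which says only that these letters do not occur in frame in their coding sequences.

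The 92 genes together took 1565 ± 181 CPM in libraries labelled female and 1769 ± 159 CPM in libraries labelled male (SD, n = 4 each). The sums were 1776, 1648, 1460 and 1375 CPM in female 1 to 4, and 1785, 1929, 1551 and 1810 CPM in male 1 to 4, so the ranges overlapped. A few members made up most of the sum: the 5 highest held 42.3% of it and the 11 members at 50 CPM or more held 66.7%, while 37 members averaged between 5 and 50 CPM and 14 between 1 and 5 CPM. The accessory genes, which make no pore of their own, held 21.1% of the summed mean. The libraries were sequenced from the 3′ end, where a transcript gives reads whatever its length, so CPM was compared between genes without division by length.

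**Figure D1:**
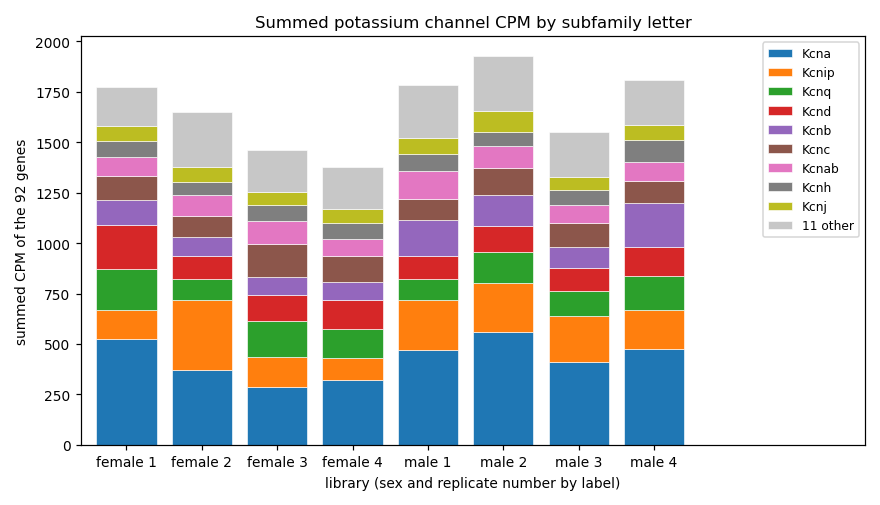
Summed CPM of the 92 potassium channel genes in each of the 8 libraries, stacked by subfamily, with the 11 smallest subfamilies joined. Kcna is the largest block on average, at a mean of 25.4% of the sum, and the Kcnip block is tallest in female 2, at 344 CPM.

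Kcna, the Shaker-type subfamily of axonal delayed rectifiers, held between 19.5% and 29.6% of the potassium channel CPM of a library. Kcnip followed with a mean of 12.4%, then Kcnq with 9.0%, Kcnd with 8.32%, Kcnb with 7.76% and Kcnc with 7.54%. The Kcnip share had the widest range, from 7.97% to 20.9%. Within Kcna the order of Kcna2 and Kcna6 changed between libraries, as the plot of single genes shows.

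**Figure D2:**
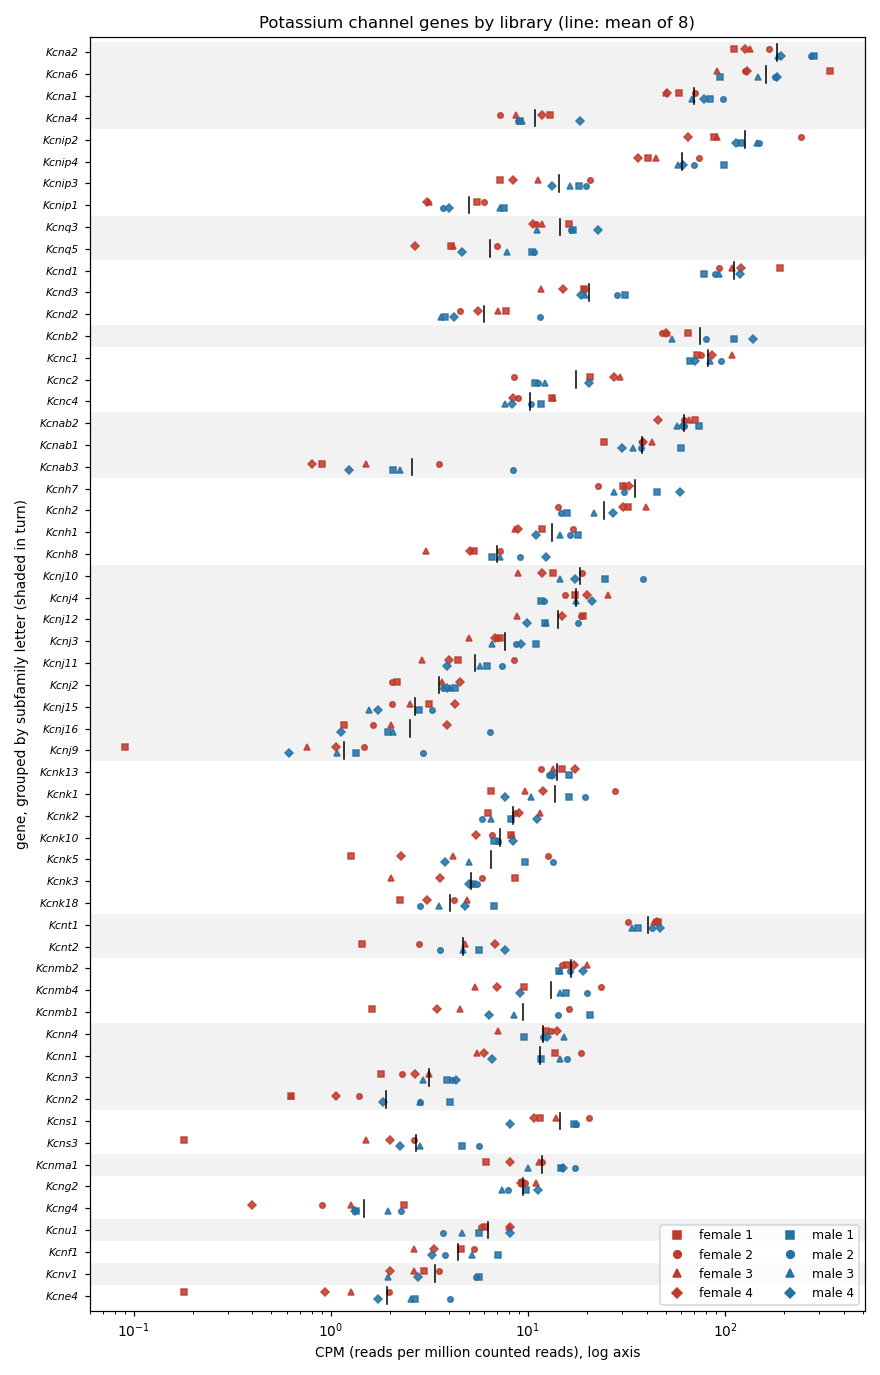
Level of 58 of the 62 analysed genes in CPM on a log axis, grouped by subfamily, with 1 point per library (female and male by label, symbols for replicate number) and a line at the mean of 8. Levels run from Kcna2 at a mean of 184 CPM to Kcnj9 at a mean of 1.17 CPM, and most genes spread over less than a factor of 5 between libraries.

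Kcna2, which encodes a pore subunit placed beside the nodes of Ranvier of myelinated axons, was the highest member at 184 ± 64.8 CPM (SD, n = 8). It had 111, 168, 133 and 127 CPM in female 1 to 4, and 283, 274, 186 and 192 CPM in male 1 to 4, and the labelled groups did not overlap. The lowest value, in female 1, and the highest, in male 1, are from the libraries whose sex transcripts go against their labels. Kcna6, another Shaker-type subunit, had 341, 127, 91.6 and 130 CPM in female 1 to 4, and 94.1, 178, 146 and 184 CPM in male 1 to 4. Female 1 was the highest of all 8 for Kcna6 and the lowest of all 8 for Kcna2. Kcna1, the usual partner of Kcna2 in the same channel, had 58.7, 70.3, 50.3 and 50.5 CPM in female 1 to 4, and 84.3, 98.3, 67.8 and 78.3 CPM in male 1 to 4, a narrower spread than that of Kcna6. Kcna4, which makes a fast-inactivating A-type current, averaged 10.8 ± 3.58 CPM.

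The Shaker-type genes lie in clusters, and some neighbours in a cluster differed by orders of magnitude. On chromosome 3 of GRCm38, Kcna3 (bases 107036169 to 107038070), Kcna2 (107101146 to 107115005) and Kcna10 (107183056 to 107195721) follow each other on the plus strand with gaps of 63075 and 68050 bases. Kcna3, a channel best known in T cells, was counted in only 2 libraries, at 0.244 CPM in male 1 and 0.109 CPM in male 2, which is at most 2 reads, and averaged 0.0441 CPM, and Kcna10 averaged 0.0777 CPM. On chromosome 6, Kcna5 (126532551 to 126535412), Kcna1 (126640397 to 126646384) and Kcna6 (126708329 to 126740674) follow each other on the minus strand with gaps of 104984 and 61944 bases, and Kcna5 averaged 0.740 CPM. A limit goes with these low values: the longest annotated 3′ stretch after the coding end is 61 bases in Kcna3 and 131 bases in Kcna10, against 9401 in Kcna2, and a read past an annotated end would not be counted. Kcna5 has 804 such bases.

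**Figure D3:**
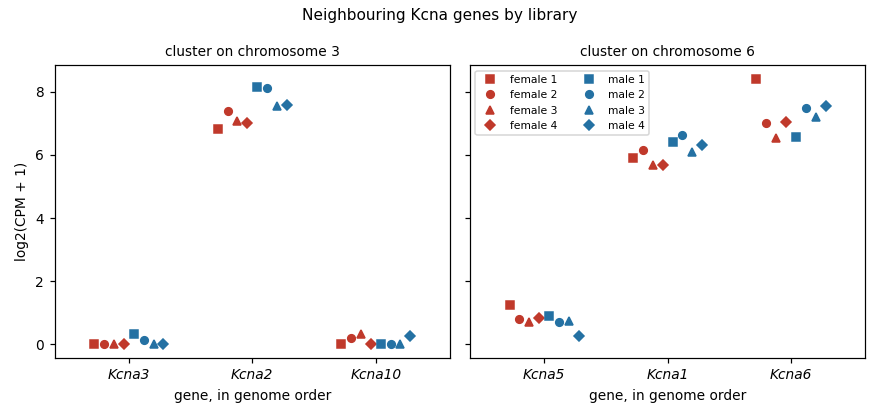
Level of neighbouring Shaker-type genes on a log2(CPM + 1) scale in genome order, for the clusters on chromosomes 3 and 6, with 1 point per library. Kcna2 stands between neighbours that are at or near 0 in all 8 libraries, and Kcna1 and Kcna6 stand beside Kcna5, which averaged 0.740 CPM.

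Among the slow delayed rectifiers, Kcnb2 had 64.6, 47.7, 50.5 and 50.3 CPM in female 1 to 4, and 112, 79.7, 53.6 and 139 CPM in male 1 to 4. The lowest male-labelled value lay among the female-labelled ones. The Kcnc genes encode fast channels that suit neurons to high firing rates. Kcnc1 led them at 82.4 ± 14.4 CPM, with Kcnc2 at 17.6 ± 8.0 and Kcnc4, an A-type member found in nociceptors, at 10.2 ± 2.30 CPM (SD, n = 8).

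The Kcnd genes encode A-type channels that act below the firing threshold, and the Kcnip genes encode calcium-binding proteins that bring them to the membrane. Kcnd1, the only analysed member on the X chromosome, had 190, 92.8, 108 and 120 CPM in female 1 to 4, and 78.0, 88.6, 93.2 and 119 CPM in male 1 to 4. It held 80.9% of the Kcnd sum, ahead of Kcnd3 at 20.3 ± 6.43 CPM and Kcnd2 at 6.01 ± 2.69 CPM. Kcnip2, the highest accessory gene, had 88.2, 243, 90.9 and 64.8 CPM in female 1 to 4, and 120, 149, 146 and 114 CPM in male 1 to 4. Female 2 was far above the other libraries labelled female, and the male-labelled values fell inside the female-labelled range. Kcnip4 averaged 60.3 ± 20.6 CPM, Kcnip3, which also acts as a transcriptional repressor named DREAM, 14.4 ± 5.15 CPM, and Kcnip1 5.03 ± 1.81 CPM. Kcnip4 spans several other annotated genes, among them 5730480H06Rik on the opposite strand with a mean of 14.8 CPM, and whether the counting used strand is not stated.

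The Kcnq genes carry the M current, a brake on firing that opens near rest. Kcnq3, an M channel subunit, averaged 14.6 ± 4.19 CPM and Kcnq5 6.45 ± 3.07 CPM. Kcnq1, which is known from heart and epithelia, averaged 0.901 CPM, and the antisense gene Kcnq1ot1 that overlaps it averaged 38.2 CPM.

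Of the ether-à-go-go genes, Kcnh7 averaged 34.9 ± 11.8 CPM and Kcnh2, known for its part in cardiac repolarisation, 24.4 ± 9.36 CPM. Kcnh1 at 13.2 ± 3.66 CPM and Kcnh8 at 7.01 ± 2.84 CPM were the other analysed members. Kcnh3 to Kcnh6 were each under 0.5 CPM, Kcnh4 at 0 in every library.

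The electrically silent subunits make no channel alone and change the gating of Kcnb partners. Kcns1, in which a human variant has been studied for chronic pain, averaged 14.6 ± 4.21 CPM, Kcng2 9.45 ± 1.34, Kcnf1 4.41 ± 1.44, Kcnv1 3.37 ± 1.43, Kcns3 2.72 ± 1.73 and Kcng4 1.48 ± 0.677 CPM (SD, n = 8). Of the beta subunits that dock under Kcna channels, Kcnab2 averaged 62.3 ± 8.68 CPM, Kcnab1, which speeds inactivation, 38.1 ± 10.5 CPM and Kcnab3 2.59 ± 2.50 CPM. Kcne4 at 1.92 ± 1.19 CPM was the only analysed member of the single-pass Kcne subunits.

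The inward rectifiers were a small share, with a mean of 4.54%, spread over 9 analysed members. Kcnj10, the satellite glial channel that takes up potassium, led them with 13.4, 18.9, 8.95 and 11.7 CPM in female 1 to 4, and 24.6, 38.4, 14.5 and 17.3 CPM in male 1 to 4. The groups overlapped, and male 2 was highest. Kcnj16, which joins Kcnj10 in one channel, had 1.17, 1.65, 2.02 and 3.87 CPM in female 1 to 4, and 1.96, 6.42, 2.06 and 1.13 CPM in male 1 to 4. Male 2 was highest here as well, and it is the library with astrocyte transcripts, whose part in these values was not tested. The strong rectifiers Kcnj4 (17.6 ± 4.65 CPM), Kcnj12 (14.3 ± 4.03 CPM) and Kcnj2 (3.54 ± 0.928 CPM) were analysed as well, as were Kcnj3, a subunit of channels opened by G proteins (7.69 ± 1.86 CPM), Kcnj15 (2.67 ± 0.897 CPM) and Kcnj11, the pore of the ATP-sensitive channel (5.38 ± 1.91 CPM). Kcnj8, the vascular counterpart of Kcnj11, averaged 0.971 CPM and was the highest member under the filter, while Kcnj9, a G protein-gated subunit at 1.17 CPM, was the lowest above it.

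The tandem-pore genes were lower still, with 7 of 14 analysed and a mean share of 3.70%. Kcnk13 averaged 14.1 ± 1.87 CPM and Kcnk1 13.7 ± 7.15 CPM. The stretch-sensitive Kcnk2 averaged 8.39 ± 2.14 CPM and the related Kcnk10 7.23 ± 1.03 CPM, whereas Kcnk4, the third of that group, had 0, 0.740, 0 and 0 CPM in female 1 to 4, and 0.611, 0.326, 0.294 and 0 CPM in male 1 to 4, at most 9 reads in a library. Kcnk18, which is known from trigeminal and spinal sensory neurons and from a human migraine variant, averaged 4.04 ± 1.44 CPM, and the acid-sensitive Kcnk3 5.13 ± 1.87 CPM. Kcnk5, an alkali-activated channel, is given below with the most variable members.

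Among channels gated by internal ions, Kcnt1, a sodium-activated channel that follows bursts of spikes, was highest at 40.8 ± 5.88 CPM. Its paralogue Kcnt2 averaged 4.68 ± 2.06 CPM. Kcnma1, the pore of the large-conductance calcium-activated channel, averaged 11.8 ± 3.76 CPM, beside its accessory genes Kcnmb2 at 16.5 ± 2.04, Kcnmb4 at 13.1 ± 6.43 and Kcnmb1 at 9.43 ± 6.80 CPM. Kcnn4 at 11.99 ± 2.59 CPM and Kcnn1 at 11.6 ± 4.98 CPM led the calcium-activated channels of smaller conductance, with Kcnn3 at 3.15 ± 0.902 and Kcnn2 at 1.91 ± 1.22 CPM. Kcnu1, a channel best known from sperm, had 6.04, 5.76, 8.07 and 8.14 CPM in female 1 to 4, and 5.62, 3.70, 4.61 and 8.10 CPM in male 1 to 4, and was above the 3-read level in every library.

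The 30 members under the filter had means from 0 to 0.971 CPM. Kcna7, Kcnh4 and Kcnk16 were at 0 in all libraries, and 12 members, these included, stayed under 3 reads in every library. The low members have shorter annotated 3′ ends: the median stretch after the coding end was 2018 bases in the 62 analysed members and 924 bases in the 30 others, and it was under 200 bases in 1 analysed member, Kcnu1, and in 6 others, Kcna3, Kcna7, Kcna10, Kcnj13, Kcnk7 and Kcnk12. For these 6 a low count does not tell a low transcript level from an unannotated 3′ end. Kcnj13 overlaps Gigyf2 (73.8 CPM) and Kcnh3 overlaps Mcrs1 (22.3 CPM), each on the opposite strand.

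Between libraries the analysed members had a median coefficient of variation of 33.9%, against 32.5% over all 14505 genes that passed the same filter. The highest library was above the lowest by a median factor of 2.70, with 51 of 62 members above a factor of 2. The steadiest were Kcnmb2 (coefficient of variation 12.4%), Kcnk13 (13.3%), Kcnab2 (13.9%), Kcng2, Kcnk10 and Kcnt1. At the far end, 10 members were above a factor of 5, and these were Kcnj9, Kcns3, Kcne4, Kcnmb1, Kcnk5, Kcnab3, Kcnn2, Kcng4, Kcnj16 and Kcnt2.

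Most of these variable members were low, but Kcnmb1 and Kcnk5 were not near the counting limit in most libraries. Kcnmb1, the smooth muscle subunit of the large-conductance channel, had 1.62, 16.1, 4.54 and 3.47 CPM in female 1 to 4, and 20.6, 14.1, 8.53 and 6.36 CPM in male 1 to 4. Kcnk5 had 1.26, 12.6, 4.16 and 2.27 CPM in female 1 to 4, and 9.65, 13.5, 5.0 and 3.79 CPM in male 1 to 4. Both genes were high in female 2, male 1 and male 2 and lowest in female 1, and the labelled groups overlapped. The sum of 8 mural cell markers, which label the muscle and pericytes of vessels, was 80.0, 167, 81.0 and 117 CPM in female 1 to 4, and 152, 169, 131 and 105 CPM in male 1 to 4, with all 8 markers analysed and above 0 in every library. It was highest in the same libraries as Kcnmb1, as were the nociceptor and myelinating Schwann cell lists given below. So was the adipocyte list of 6 markers, at 62.1, 347, 108 and 227 CPM in female 1 to 4, and 300.5, 320, 267 and 101 CPM in male 1 to 4. Most of that sum was Car3 alone, with a mean of 205 CPM. Plin1, the next highest of the list, had another order, with 1.89, 4.77, 2.14 and 5.20 CPM in female 1 to 4, and 6.84, 5.33, 5.59 and 1.95 CPM in male 1 to 4. Within the mural list the smooth muscle marker Myh11 had another order, with 10.6, 15.3, 22.4 and 25.1 CPM in female 1 to 4, and 16.5, 17.1, 14.5 and 15.7 CPM in male 1 to 4. The part of these lists in the spread of Kcnmb1 was not tested. Kcnmb1 lies inside Kcnip1 on the opposite strand, and Kcnip1 had 5.50, 6.01, 3.15 and 3.07 CPM in female 1 to 4, and 7.58, 3.70, 7.26 and 4.0 CPM in male 1 to 4.

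The same set of libraries, female 2, male 1 and male 2, was the highest for 12 of the 62 members, more than any other set of that size. Next were male 1, 2 and 4 for 8 members and male 1, 2 and 3 for 6. The sets were not counted over all genes, so this order is not shown to be particular to the potassium channel genes. The lowest value of a member fell in a library labelled female for 48 members and in one labelled male for 14. Of the 48, female 3 held 17, female 1, whose sex transcripts go against its label, 13, female 4 10 and female 2 8. This count was not made over all genes or for the 6 libraries. Of all genes tested, 67.5% had a log2 difference below 0, lower in libraries labelled female. Sums of 10 myelinating Schwann cell markers were 11026, 18405, 9015 and 13607 CPM in female 1 to 4, and 17328, 20006, 17034 and 13385 CPM in male 1 to 4. Sums of 13 sensory neuron markers were 22559, 15458, 25794 and 21741 CPM in female 1 to 4, and 12724, 12180, 17556 and 18420 CPM in male 1 to 4. Most of that spread lay in Uchl1, Prph and Nefm, singled out after their values were seen: the other 10 markers summed to 8598 to 10237 CPM in libraries labelled female and 7836 to 10541 CPM in libraries labelled male. The nociceptor list of 8 markers summed to 790, 1467, 1044 and 961 CPM in female 1 to 4, and 1663, 1352, 1303 and 1226 CPM in male 1 to 4. For 8 markers of large myelinated neurons the sums were 547, 1074, 609 and 652 CPM in female 1 to 4, and 958, 1034, 1008 and 569 CPM in male 1 to 4. The lists of sensory neuron types thus did not share one order over the libraries. In bulk tissue, fewer cells of a type and less RNA per cell cannot be told apart, and the part of this makeup in the channel values was not tested.

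**Figure D4:**
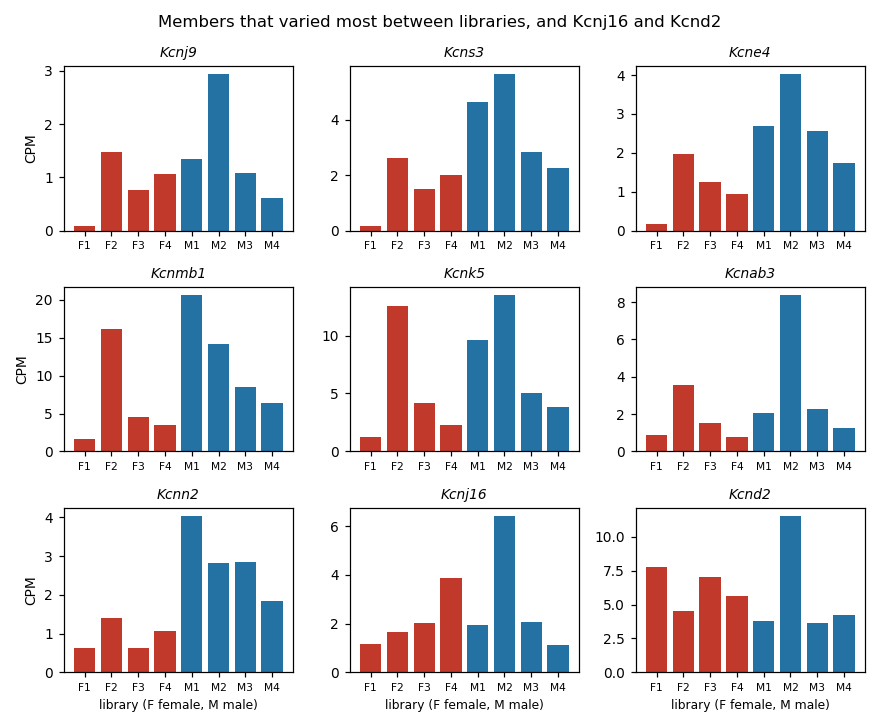
CPM in each library for 7 of the genes with the widest range and for Kcnj16 and Kcnd2, with bars for libraries labelled female at the left and male at the right. Kcnmb1 and Kcnk5 are tallest in female 2, male 1 and male 2, and Kcnab3, Kcnj16 and Kcnd2 are tallest in male 2.

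Male 2 stood apart in a few members. Kcnab3, a beta subunit found in brain, had 0.901, 3.54, 1.51 and 0.800 CPM in female 1 to 4, and 2.08, 8.37, 2.26 and 1.23 CPM in male 1 to 4, and was the only analysed member that exceeded the other 7 libraries by more than a factor of 2 there. Kcnd2 had 7.75, 4.52, 7.06 and 5.60 CPM in female 1 to 4, and 3.79, 11.5, 3.63 and 4.21 CPM in male 1 to 4. For both genes male 2 was the highest of 8 libraries, and the part of its central nervous system transcripts was not tested.

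The labelled sexes were compared gene by gene with limma on log2(CPM + 1), over all 14505 genes, as female minus male. None of the 62 members passed a Benjamini-Hochberg adjusted p of 0.05, and neither did any gene of the whole table (0 of 62 members, background 0%). The smallest adjusted p of a member was 0.446. At an unadjusted p under 0.05 there were 10 of 62 members, against 11% of all genes, and all 10 were lower in libraries labelled female, where the share of all genes was 8.26%, and none was higher, against 2.74%. The median difference of the members was -0.29 on the log2 scale, beside -0.18 over all genes tested, and 45 of 62 members (72.6%) were below 0, against 67.5% of all genes. After scaling by the median ratio between libraries the medians were -0.11 and -0.01, with 61.3% of members and 50.6% of all genes below 0. After quantile normalization they were -0.01 and 0.01, with 51.6% of members and 49.2% of all genes below 0. Without female 2, the members Kcna2, Kcnip3, Kcnmb1 and Kcnn2 passed the adjusted p, 4 members, as did 9.33% of all genes. With library weights 23 members and 30.1% of all genes passed. The sensory neuron, nociceptor, large myelinated neuron and Schwann cell marker sums given above differed between libraries in different directions, and their part in these differences was not tested. The median 95% interval of a member reached 0.63 to either side on the log2 scale.

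The labelled groups did not overlap for 3 of 62 members, Kcnn2 and Kcna2 among them, against 4.23% of all genes, and all 3 were lower in libraries labelled female, against 3% of all genes, with none higher, against 1.23%. Kcnn2, a small-conductance channel that follows the spike with a slow hyperpolarisation, had 0.631, 1.40, 0.630 and 1.07 CPM in female 1 to 4, and 4.03, 2.83, 2.84 and 1.85 CPM in male 1 to 4. These values stand for 5 to 33 reads, and the log2 difference was -1.0 with a standard error of 0.26 (limma, unadjusted p = 0.00284, adjusted p = 0.446). For Kcna2, with the values given above, the difference was -0.78 with a standard error of 0.22 (adjusted p = 0.446). Both genes were highest in male 1, and Kcna2 was lowest in female 1, the libraries whose sex transcripts go against their labels. With one library left out, the count of members without overlap was 5 without female 1 (6.09% of all genes), 16 without female 2 (23.9%), 10 without male 3 (11.1%) and 8 without male 4 (8.42%).

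The other members of smallest p that were lower in libraries labelled female overlapped between the groups. Kcne4 had 0.180, 1.97, 1.26 and 0.934 CPM in female 1 to 4, and 2.69, 4.02, 2.55 and 1.74 CPM in male 1 to 4, with a difference of -0.89 and a standard error of 0.32, and its female 1 value is 2 reads. The difference was -0.76 with a standard error of 0.28 for Kcnb2 and -0.51 with a standard error of 0.20 for Kcna1. The unadjusted p of these 3 members ran from 0.0184 to 0.0261 and the adjusted p was 0.446. On the other side, the 5 members of smallest p that were higher in libraries labelled female had unadjusted p from 0.143 upward. Kcnd1 had a difference of 0.39 with a standard error of 0.25, Kcnh2 of 0.48 with 0.32, Kcnc2 of 0.52 with 0.37, Kcnj4 of 0.33 with 0.26, and Kcnu1 of 0.33. Kcnc2 had 20.6, 8.47, 29.4 and 27.3 CPM in female 1 to 4, and 10.9, 11.3, 12.3 and 20.5 CPM in male 1 to 4, so that female 2 was the lowest of all 8.

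**Figure D5:**
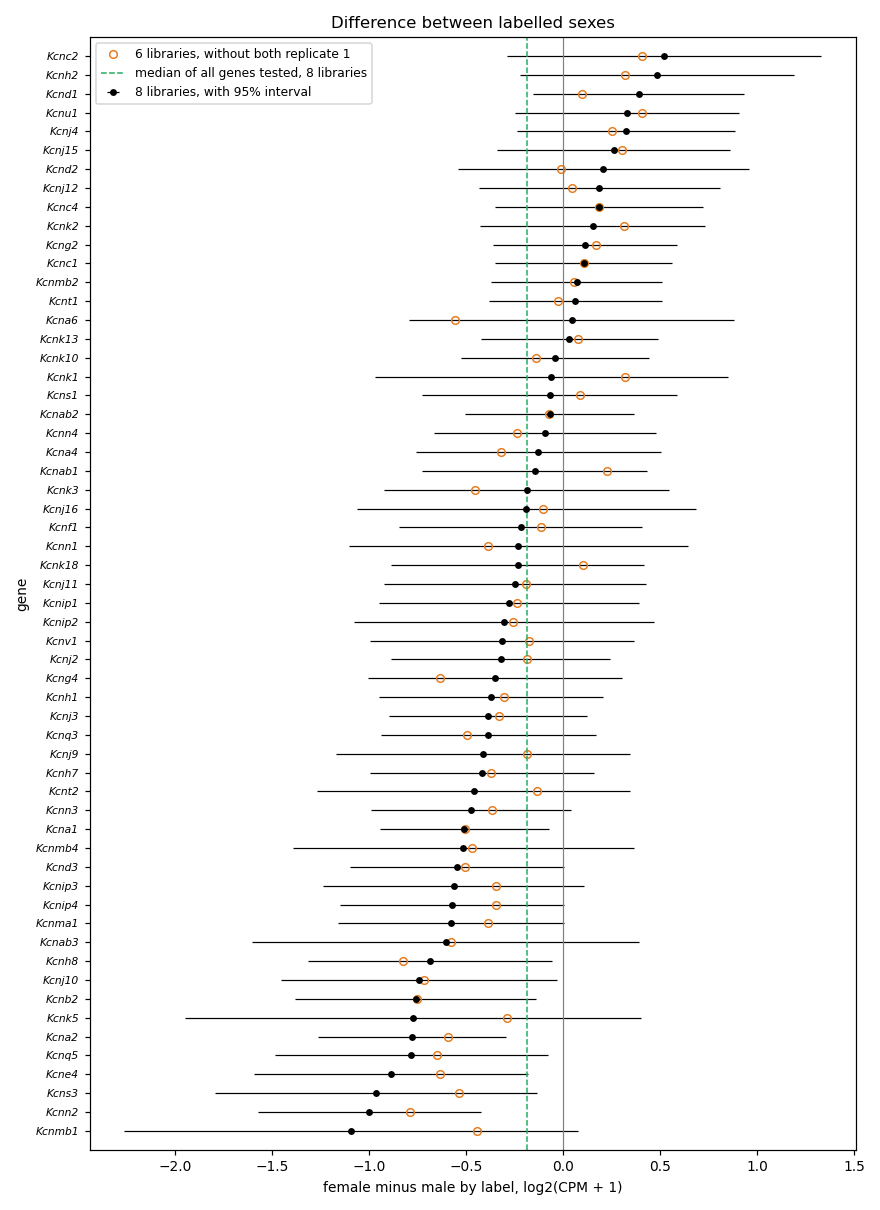
Difference between libraries labelled female and male for 58 of the 62 analysed genes on the log2(CPM + 1) scale, with the 95% interval from 8 libraries (black) and the value from the 6 libraries without both replicate 1 (open circles). Most points lie left of 0, as does the median of all genes tested at -0.18 (dashed line), and no gene passed the adjusted p.

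In the 6 libraries without both replicate 1, 0 of 62 members passed the adjusted p, against 0.0414% of all genes, and 4 of 62 had an unadjusted p under 0.05, against 2.43%. All 4 were lower in libraries labelled female (1.94% of all genes), and none was higher (0.483%). The median difference of the members was -0.24, beside -0.12 over all genes, and 45 of 62 members were below 0, against 64.4% of all genes. The differences kept their sign for each member named above: Kcnn2 -0.79, Kcna2 -0.59, Kcne4 -0.64, Kcnb2 -0.75, Kcna1 -0.51, Kcnh2 0.32, Kcnc2 0.41, Kcnj4 0.25 and Kcnu1 0.41. The X-linked Kcnd1 was at 0.10. Without male 2 as well, Kcnh2 was at 0.10, Kcnj4 at 0.04, Kcnd1 at 0.01, Kcnc2 at 0.25 and Kcnu1 at 0.21, each smaller than in the 6 libraries. Among those lower in libraries labelled female, Kcnn2 was then at -0.72, Kcna2 at -0.41, Kcne4 at -0.41, Kcnb2 at -0.79 and Kcna1 at -0.37. The groups of 3 libraries did not overlap for 8 of 62 members, against 7.59% of all genes. Lower in libraries labelled female were 7 members, Kcnn2, Kcna2, Kcnb2, Kcnh8, Kcng4 and Kcna6 among them, against 4.94% of all genes, and Kcnab1 was higher, 1 member against 2.65%. In these 5 libraries 0 of 62 members passed the adjusted p, against 0.0276% of all genes, 0 had an unadjusted p under 0.05, against 0.724% of all genes, and 11 of 62 did not overlap, against 10.9%.

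Partners of these channels that carry other names were read from the same test, 27 genes of which 23 were tested. None passed the adjusted p in any of these sets of libraries. With 8 libraries, 2 of 23 had an unadjusted p under 0.05, against 11% of all genes, and 15 of 23 were lower in libraries labelled female, against 67.5%, with a median difference of -0.22. With 6 libraries 0 of 23 had an unadjusted p under 0.05, against 2.43%, and 16 of 23 were lower, against 64.4%, with a median of -0.20. Dlg2, a scaffold that gathers Kcna channels along the axon, had 11.1, 34.3, 10.96 and 13.7 CPM in female 1 to 4, and 33.1, 49.5, 31.5 and 21.3 CPM in male 1 to 4, a difference of -1.01 (limma adjusted p = 0.446) with overlap through female 2, and of -0.85 in the 6 libraries and -0.55 without male 2 as well. Dpp10, a partner of the Kcnd channels, was at -0.48 in 8 libraries, -0.24 in 6 and -0.18 without male 2 as well. On the other side the scaffold Dlg4 was at 0.78 in 8 libraries, 0.44 in 6 and 0.06 without male 2 as well. The secreted Lgi4 was at 0.42, 0.51 and 0.44 in these sets, and Lgi1 at 0.23, 0.25 and 0.30.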

How the data were processed

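Total RNA of dorsal root ganglia was depleted of ribosomal RNA and made into 3′ QuantSeq libraries, per the labels' protocols. Cufflinks 2.2.1, Bowtie2 2.2.9, TopHat2 2.1.1 and FastQC 0.11.5 appear in the submitters' processing notes, with the builds GRCm38.p4 and mm10. The sources used here give neither the annotation nor a strand setting. Deposited by the authors as TPM, the values were used as CPM: each library sums to 1000000, and 98.3% to 98.6% of its values above 0 and below 200 reads were whole multiples of one step within 0.05. The counted reads per library follow from that step, and the lowest countable level of 3 reads covers counting error only.

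Values of symbols shared by several table entries were summed. Groups are the sexes of the labels. limma 3.58.1 in R 4.3.3 was run with a trend of variance on log2(CPM + 1) over all 14505 genes averaging 1 CPM or more, with Benjamini-Hochberg adjustment, two-sided, and was tested on simulated data. No count model was used. The p-values cover only the spread among these samples, part of which may be technical. Of 28 pairs of libraries, 0 held identical values. Replicate numbers were not used to pair the samples in the main test. Same-numbered deviations correlated at -0.31, 0.70, -0.15 and 0.44 for replicates 1 to 4, which does not settle whether the numbers pair samples. With a replicate block, 18.6% of all genes had an unadjusted limma p under 0.05, against 11% without it, and none passed the adjusted p.

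Levels are named for the 2 highest members of each subfamily, all members of at least 50 CPM, a list of known channels, and members that stand apart in male 2. Differences are named for the 5 members per direction of smallest p, for members whose groups do not overlap and for X-linked members. Some members, a partner gene and some sequences are counted but not reported here by name. Members and lists were chosen with earlier results of these data known. Coding sequences and gene positions are from GENCODE on GRCm38, which held 99.2% of the gene IDs. Figures were drawn with matplotlib 3.10.9. Alternatives covered pseudocount, filter, scaling, variance model, library weights, replicate block and left-out libraries.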

Additional observations from a re-analysis of the deposited data

Results flagged for a closer look

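In 142 groups of 4 libraries (51 genes and 20 subfamily sums in each labelled sex), 14 had one library set apart from the other 3 by a wide gap relative to the range. Chance marks about 1 group in 20 where values are normally distributed and a group was not picked for its values. The groups here are not independent, because the subfamily sums repeat the values of their members, and some genes were picked for their values. The 14 marks are therefore not set against that rate. Among libraries labelled female, female 1 stood apart for Kcna6, at 341 CPM against at most 130 CPM, for Kcnb2, at 64.6 CPM against at most 50.5 CPM, and for the Kcnb sum, at 127 CPM against at most 95.4 CPM. Female 2 stood apart for Kcnip2, at 243 CPM against at most 90.9 CPM, and with it for the Kcnip sum, at 344 CPM against at most 150 CPM. The same library was set apart for the Kcnmb sum, at 54.7 CPM against at most 29.9 CPM, for Kcnk4, at 0.740 CPM against 0, and, on the low side, for Kcnt1, at 32.2 CPM against at least 43.7 CPM.

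Among libraries labelled male, male 4 stood apart for Kcna4, at 18.5 CPM against at most 9.31 CPM, for Kcnc2, at 20.5 CPM against at most 12.3 CPM, and, on the low side, for Kcns1, at 8.10 CPM against at least 17.1 CPM. Male 2 stood apart for Kcnab3, at 8.37 CPM against at most 2.26 CPM, and for Kcnd2, at 11.5 CPM against at most 4.21 CPM. Kcnab3 was examined only because its male 2 value was over 2 times that of any other library. Its mark is therefore no separate support and cannot be set against chance. Male 1 stood apart for Kcnk13, at 16.1 CPM against at most 13.3 CPM.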

How the results depend on the processing

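The count of 0 members between the labelled sexes (10 at an unadjusted p under 0.05) was 0 at every other pseudocount, filter, scaling and variance model tried. With library weights 23 members passed, 2 higher and 21 lower in libraries labelled female, as did 4363 of all genes, against 0 without weights. With one library left out the count of members ranged from 0 to 4 and that of all genes from 0 to 1354; both highest values came without female 2, where Kcna2, Kcnip3, Kcnmb1 and Kcnn2 passed. Without both replicate 1 libraries 6 of all genes passed, and without male 2 as well 4. With the replicate block 0 members passed, 14 of 62 had an unadjusted p under 0.05, against 18.6% of all genes, and the median difference stayed at -0.29. The count of members whose groups do not overlap was 3, ranged from 4 to 16 with one library left out (5 without female 1, 16 without female 2, 10 without male 3, 8 without male 4, beside 6.09%, 23.9%, 11.1% and 8.42% of all genes), and was 8 without both replicate 1 libraries (7.59%) and 11 without male 2 as well (10.9%); fewer libraries make a gap easier. The cause of the other changes was not tested. In the 6 libraries the count of members stayed 0 under every alternative run. No named difference changed sign under any alternative run, but without both replicate 1 libraries and male 2 Kcnh2 was at 0.10 against 0.48, Kcnj4 at 0.04 against 0.33 and Kcnd1 at 0.01 against 0.39, and the Kcna share of the summed CPM moved by less than its spread. Depth limits the members below about 0.400 CPM.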
